A study of Mus musculus with 6 samples.

Results

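The interleukin 1 (IL-1) family was followed in CD4+ dendritic cells (DC) of the spleen through 10 genes chosen by name: the ligands Il1a, Il1b, Il18 and Il33, the soluble antagonists Il1rn and Il18bp, and the receptor genes Il1r1, Il1r2, Il1rap and Il1rl1. A gene was read through every probe set annotated with its symbol alone, which gave 1 probe set each for 8 of the 10 genes. Il1r1 and Il1rl1 had no such probe set and were not analysed here. The 8 probe sets are part of 35399 on the array, of which 21789 carried 1 symbol. RNA of sorted CD4+ DC was hybridised to 6 arrays, 1 per mouse, from 3 wild-type (WT, Runx3 +/+) and 3 Runx3-/- males aged 6 weeks. Each of 3 litters gave a mouse of either genotype, and array numbers 1 to 3 name the litter. The Runx3-/- mice lacked the gene in the germline, so every cell of the animal, not only the DC, was without it, and the labels give neither a transgene nor a treatment for either group. The DC were enriched with beads and sorted as CD11c+ MHCII+ cells by their CD4 and CD8 staining, and the labels also name Esam without giving its gate.

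IL-1 alpha and IL-1 beta signal by binding the receptor encoded by Il1r1, which then recruits the accessory protein encoded by Il1rap. The IL-1 receptor antagonist, encoded by Il1rn, occupies the same receptor without recruiting that partner, and the decoy receptor encoded by Il1r2 binds IL-1 but lacks the signalling domain. IL-18 is captured by IL-18 binding protein in a similar way, and IL-33 uses its own receptor, ST2, encoded by Il1rl1, together with the same accessory protein. Receptor complexes act through MyD88 and the IRAK kinases. The precursors of IL-1 beta and IL-18 are cleaved by caspase-1 in inflammasomes of macrophages and DC.

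Values are log2 RMA (robust multichip average) levels, and a log2 value of 6.5 is the background named in the study's methods. Levels were compared only between genotypes within a probe set. The arrays were alike, with medians from 6.57 to 6.65. Runx3 itself lay at 11.19 ± 0.07 in WT and 9.21 ± 0.08 in Runx3-/- arrays (SD, n = 3 each), a log2 change of -1.98 (adjusted p = 0.00270). Under a replicate block for litter that change stayed at -1.98 but no longer passed (adjusted p = 0.0609), and without WT 1 it was -1.96 (adjusted p = 0.0532). The Runx3-/- level stayed above background, and where its probe set lies relative to the deletion is not given in the labels. In WT arrays the sort markers Cd4, Itgax (CD11c) and H2-Aa (MHCII) lay between 12.45 and 13.77. None of the 10 tested genes of an 11-gene list of CD4+ DC identity passed the adjusted threshold. Of these 10, 4 had an unadjusted p of at most 0.05 (log2 changes of -0.35 for Zbtb46, -0.28 for Flt3, -0.27 for Clec4a4 and 0.47 for Itgam). Over all tested probe sets the shares were 1.56% and 15.9%, so the lack of calls among 10 genes says little. The fit covered the 19149 probe sets that reached 6.5 in at least 1 array, and Il33 was the member that did not.

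Since the results turn on Il1a and Il1rn, the RefSeq promoter windows of these genes are shown first, together with those of Il18 and Il18bp, the members whose windows hold a RUNX core hexamer. Each window runs from 250 bases before to 50 after an annotated start (GRCm38.p6), in the direction of the gene, and the 8 measured members have 11 such windows. Capitals mark TGTGGT or its reverse complement ACCACA (the RUNX core) and an NF-kappa-B-like pattern (GGG, any 5 bases, then CC) on either strand, whose matches can overlap.
Il1a, chr2:129309923-129310222, minus strand: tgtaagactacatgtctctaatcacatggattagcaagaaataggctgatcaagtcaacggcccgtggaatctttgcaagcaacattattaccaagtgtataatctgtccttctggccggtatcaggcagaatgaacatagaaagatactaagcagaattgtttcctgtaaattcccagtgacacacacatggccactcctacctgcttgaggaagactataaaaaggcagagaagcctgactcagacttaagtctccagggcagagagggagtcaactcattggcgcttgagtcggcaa
Il1rn, upstream start, chr2:24336610-24336909, plus strand: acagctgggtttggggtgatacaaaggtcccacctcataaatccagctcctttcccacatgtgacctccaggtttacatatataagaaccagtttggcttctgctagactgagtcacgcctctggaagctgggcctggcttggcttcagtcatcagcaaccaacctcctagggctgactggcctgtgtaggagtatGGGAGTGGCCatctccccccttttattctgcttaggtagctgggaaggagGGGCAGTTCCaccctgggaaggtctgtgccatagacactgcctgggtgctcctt
Il1rn, downstream start, chr2:24345121-24345420, plus strand: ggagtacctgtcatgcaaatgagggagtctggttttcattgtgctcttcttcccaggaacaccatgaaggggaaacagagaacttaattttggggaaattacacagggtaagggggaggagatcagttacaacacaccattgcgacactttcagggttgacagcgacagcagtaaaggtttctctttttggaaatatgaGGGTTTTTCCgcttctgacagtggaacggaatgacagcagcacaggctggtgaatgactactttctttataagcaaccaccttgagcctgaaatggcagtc
Il18, chr9:50554450-50554749, plus strand: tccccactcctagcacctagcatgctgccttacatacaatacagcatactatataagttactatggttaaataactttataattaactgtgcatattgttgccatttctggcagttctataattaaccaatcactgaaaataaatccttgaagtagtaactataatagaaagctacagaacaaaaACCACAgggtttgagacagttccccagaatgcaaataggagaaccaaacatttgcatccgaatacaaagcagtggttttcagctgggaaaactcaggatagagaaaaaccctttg
Il18bp, chr7:102018183-102018482, minus strand: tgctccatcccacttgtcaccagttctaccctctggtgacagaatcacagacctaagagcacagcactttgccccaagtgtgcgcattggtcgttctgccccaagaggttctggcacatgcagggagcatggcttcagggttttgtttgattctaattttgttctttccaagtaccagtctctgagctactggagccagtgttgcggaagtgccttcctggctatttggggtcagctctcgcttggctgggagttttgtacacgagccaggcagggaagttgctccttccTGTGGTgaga
The RUNX core TGTGGT was found in 2 of the 11 windows, those of Il18 (first base at -65 from the start) and Il18bp (at 40), as it was in 16.8% of all 32851 mouse promoter windows. Its variant TGCGGT was in 0 of the 11 and in 6.45% of all. The NF-kappa-B-like pattern was in 4 of the 11, all 3 windows of Il1rn and that of Il1rap, against 50.8% of all, and the ETS-IRF composite pattern (GGAA, any 2 bases, then GAAA) was in 0 against 2.72%. The remaining Il1rn window overlaps the downstream one shown and holds the same match. These are matches of letters in short windows. They show no binding, and Runx3 occupancy was not analysed here.

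Among the agonist ligands, Il1a alone passed the adjusted threshold. It was at 5.91, 5.87 and 5.81 in WT 1 to 3 and at 7.34, 7.09 and 7.23 in Runx3-/- 1 to 3. All WT arrays lay below background and all Runx3-/- arrays above it, with a gap of 1.18 on the log2 scale between the groups. The rise was at least 1.65-fold when WT was set at the background, the measured log2 change being 1.36 with an SE of 0.09 (limma, adjusted p = 0.0109). Within litters the difference was 1.43, 1.22 and 1.42. The call was lost with the litter as a replicate block (adjusted p = 0.0659), in the methods' t-test (0.0784), without WT 1 (0.0743) and without Runx3-/- 3 (0.0522), with the 13 alternatives spanning 0.00863 to 0.0784, and the log2 change stayed between 1.30 and 1.42.

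Il1b, the other IL-1 agonist, is the coding gene next to Il1a in RefSeq order and was far above background in every array. Its log2 level was 11.76, 11.72 and 11.35 in WT 1 to 3 and 12.03, 12.24 and 12.03 in Runx3-/- 1 to 3. The groups did not overlap, though the nearest arrays were 0.27 apart. The log2 change of 0.49 (95% interval 0.17 to 0.81) did not pass the adjusted threshold (adjusted p = 0.156, or 0.119 to 0.323 in the 13 alternatives). WT 3 held the lowest value, and without it the log2 change was 0.36.

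Il18, an inducer of interferon gamma, had the smallest change of the 7 tested members. Its log2 level was 9.75, 9.98 and 9.53 in WT 1 to 3 and 9.99, 10.01 and 9.76 in Runx3-/- 1 to 3. The groups overlapped, and the log2 change of 0.16 had a 95% interval from -0.16 to 0.49 (adjusted p = 0.615). In the RefSeq annotation the Il18 locus overlaps the coding genes Bco2 and Tex12, and which of their exons the probe set could read was not examined. Il33, an alarmin of stromal and endothelial cells, was below background in all arrays, at 5.24, 5.22 and 5.23 in WT 1 to 3 and 5.35, 5.36 and 5.30 in Runx3-/- 1 to 3, so no fold is given.

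**Figure D1:**
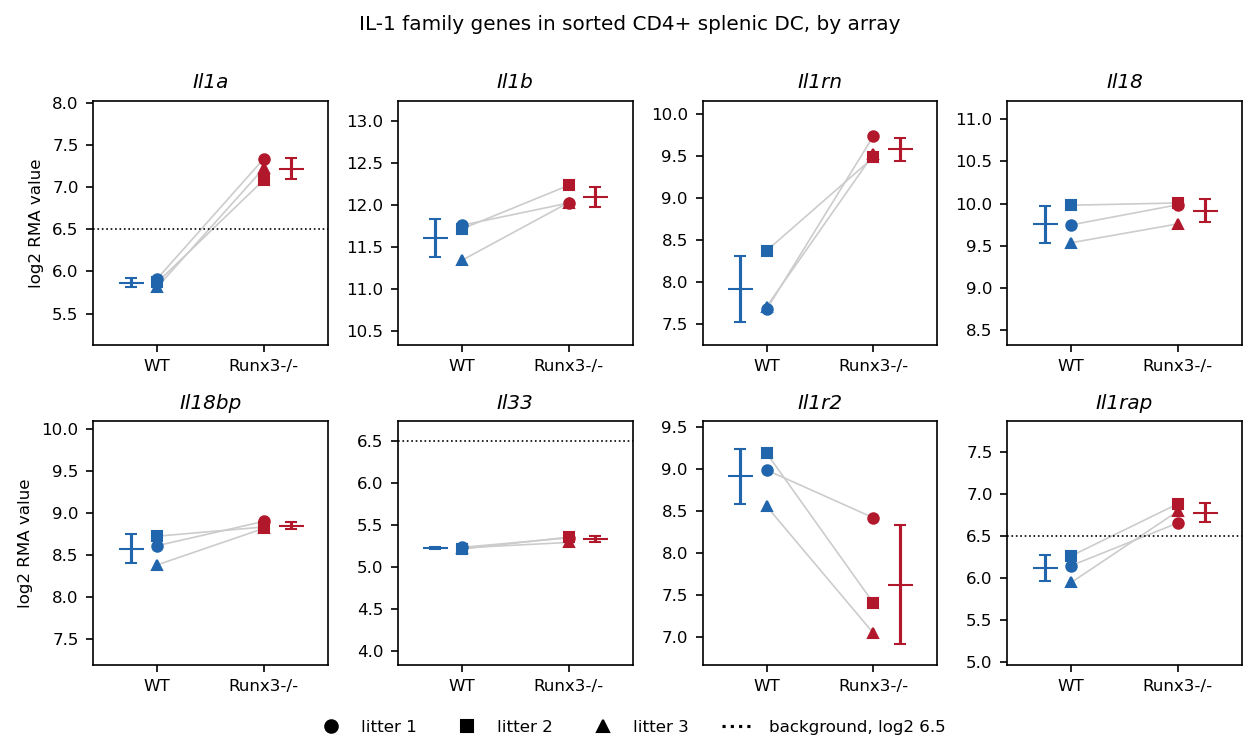
Log2 RMA value (vertical axes, each spanning the same range) of the 8 measured IL-1 family genes in WT (blue) and Runx3-/- (red) arrays. Symbols mark the litter and grey lines join littermates, bars beside the points give the mean and SD (n = 3), and the dotted line is the background of 6.5 where it lies in the panel. The WT values of Il1a (5.81 to 5.91) and Il1rap (5.94 to 6.26) lie below that line and the Runx3-/- values above it, whereas all values of Il33 lie below.

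The antagonist Il1rn rose. Its log2 level was 7.67, 8.37 and 7.70 in WT 1 to 3 and 9.73, 9.48 and 9.52 in Runx3-/- 1 to 3. Every array was above background, and the lowest Runx3-/- array stood 1.11 above the highest WT array, WT 2. The increase was 3.16-fold, a log2 change of 1.66 with an SE of 0.20 (limma, adjusted p = 0.0249). Within litters it was 2.06, 1.11 and 1.81. The probe set is annotated with 3 RefSeq mRNAs, so the secreted and intracellular forms of the antagonist cannot be told apart. The call was lost with the litter as a replicate block (adjusted p = 0.0942), in the methods' t-test (0.132) and without WT 1 (0.119), WT 3 (0.0883), Runx3-/- 1 (0.106), Runx3-/- 2 (0.0549) or Runx3-/- 3 (0.0841), and the log2 change ranged from 1.54 to 1.89 over 13 alternatives.

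The antagonist's change was larger than that of the agonist Il1b in every litter. The log2 change of Il1rn exceeded that of Il1b by 1.17 on average, and by 1.80, 0.59 and 1.13 in litters 1 to 3. An exact two-sided permutation test of this difference over the 6 arrays, which set the pairing by litter aside, gave p = 0.1. That is the lowest value possible with 3 arrays a group, so the test cannot decide whether the changes differ. Against the other agonist, Il1a, the measured order varied by litter, the Il1rn differences being 2.06, 1.11 and 1.81 and those of Il1a 1.43, 1.22 and 1.42. Il1a lay below background in all WT arrays, so its differences may be understated and these values cannot settle the order.

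Il18bp, the antagonist of IL-18, was at 8.61, 8.73 and 8.38 in WT 1 to 3 and at 8.90, 8.84 and 8.82 in Runx3-/- 1 to 3. The Runx3-/- arrays were the more uniform (SD 0.04 against 0.17 in WT), and the groups lay 0.09 apart at their nearest. Its log2 change of 0.28 (95% interval 0.03 to 0.53) did not pass (adjusted p = 0.267).

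The decoy receptor Il1r2 was the measured member that went the other way. Its log2 level was 8.99, 9.19 and 8.56 in WT 1 to 3 and 8.42, 7.41 and 7.05 in Runx3-/- 1 to 3. All arrays were above background, and Runx3-/- 1 lay 0.14 below the lowest WT array while the remaining Runx3-/- arrays lay more than 1 log2 unit below it. The WT level was 2.44-fold that of Runx3-/- DC, a log2 change of -1.29 with a 95% interval from -2.17 to -0.40. With an unadjusted p of 0.0117 it met the study's thresholds, which ask for 0.05 or less and 1.5-fold, but it did not pass after adjustment (adjusted p = 0.167, or 0.0901 to 0.430 in the 13 alternatives). The SD was 0.71 in Runx3-/- and 0.32 in WT arrays, and the change was -1.68 without Runx3-/- 1 and -0.998 without Runx3-/- 3.

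Il1rap, the shared co-receptor, was at 6.14, 6.26 and 5.94 in WT 1 to 3 and at 6.65, 6.88 and 6.79 in Runx3-/- 1 to 3. As with Il1a, background separated the genotypes, so the Runx3-/- level was at least 1.21-fold that of WT. Its log2 change of 0.66 (SE 0.11) lay at the edge of the adjusted threshold (adjusted p = 0.0501). It passed with quantile normalization (adjusted p = 0.0429), median centring (0.0477) or a filter of 6.5 in at least 3 arrays (0.0440). Il1rap met that filter only through its Runx3-/- arrays, which favours a difference. In the other alternatives the adjusted p lay between 0.0583, the limma value without a filter, and 0.192. Its probe set is annotated with 4 RefSeq mRNAs, so membrane-bound and soluble forms were not resolved.

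**Figure D2:**
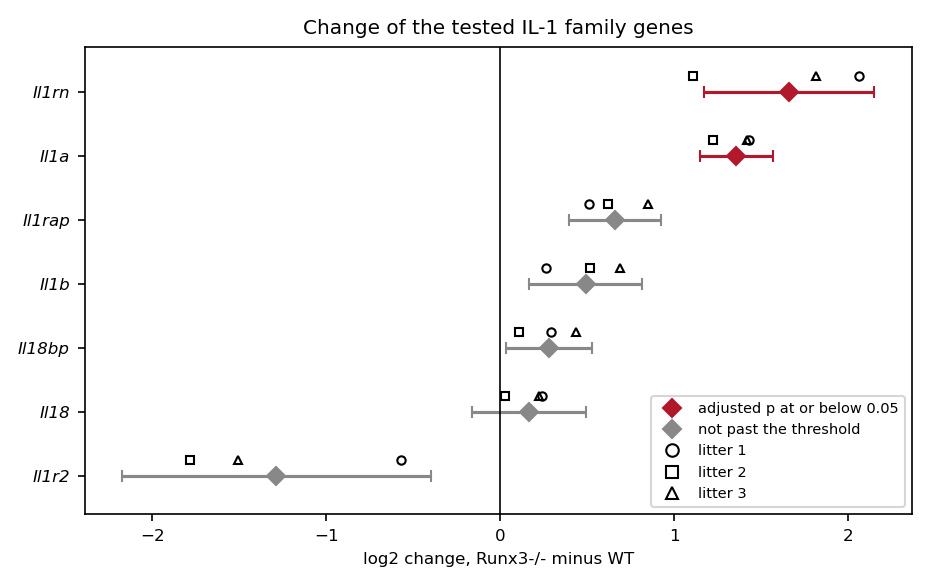
Log2 change of Runx3-/- against WT (horizontal axis) for the 7 tested IL-1 family genes. Diamonds and bars give the limma estimate and its 95% interval, red where the adjusted p was at most 0.05, and open symbols above each give the difference within each litter. Il1rn (1.66) and Il1a (1.36) lie to the right, Il1r2 (-1.29) is the one gene to the left of 0, and the interval of Il18 crosses 0.

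Of the 7 tested members, 2 were called higher (Il1a and Il1rn) and 0 lower at an adjusted p of 0.05, where 1.56% of all tested probe sets were called, 0.856% higher and 0.7% lower. At the study's thresholds 3 were higher (Il1a, Il1rn and Il1rap) and 1 was lower (Il1r2), where 3.95% of all probe sets passed, 2.01% higher and 1.94% lower. The groups did not overlap for 5 members higher and 1 lower in Runx3-/- DC, against 7.48% and 14.9% of all probe sets (22.4% in either direction). Il1a and Il1rap entered the fit only through their Runx3-/- arrays, which favours a difference, and these counts are a description of 7 genes. The median log2 change was 0.49 over the 7 and -0.04 over all tested probe sets. Unadjusted p was at most 0.05 for 6 of the 7, with Il18 the exception, and for 15.9% of all tested probe sets. Within litters, all 3 pairs had the sign of the mean change for each of the 7. Where the groups did not overlap this had to be so, and it adds nothing to that count. For Il18, whose groups overlapped, the differences within litters were 0.24, 0.03 and 0.22.

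Calls at the adjusted threshold depended on single arrays. Among the 7 members, 2 were called without WT 2, 1 (Il1a) without WT 3, Runx3-/- 1 or Runx3-/- 2, and 0 without WT 1 or Runx3-/- 3, where limma still gave an unadjusted p of at most 0.05 for 5 members. The count at the study's thresholds was 4 without any 1 array, except that it was 3 without WT 3, when Il1rap missed the fold of 1.5. Il1a, Il1rn and Il1r2 were past the study's thresholds in each of the 13 alternatives.

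**Figure D3:**
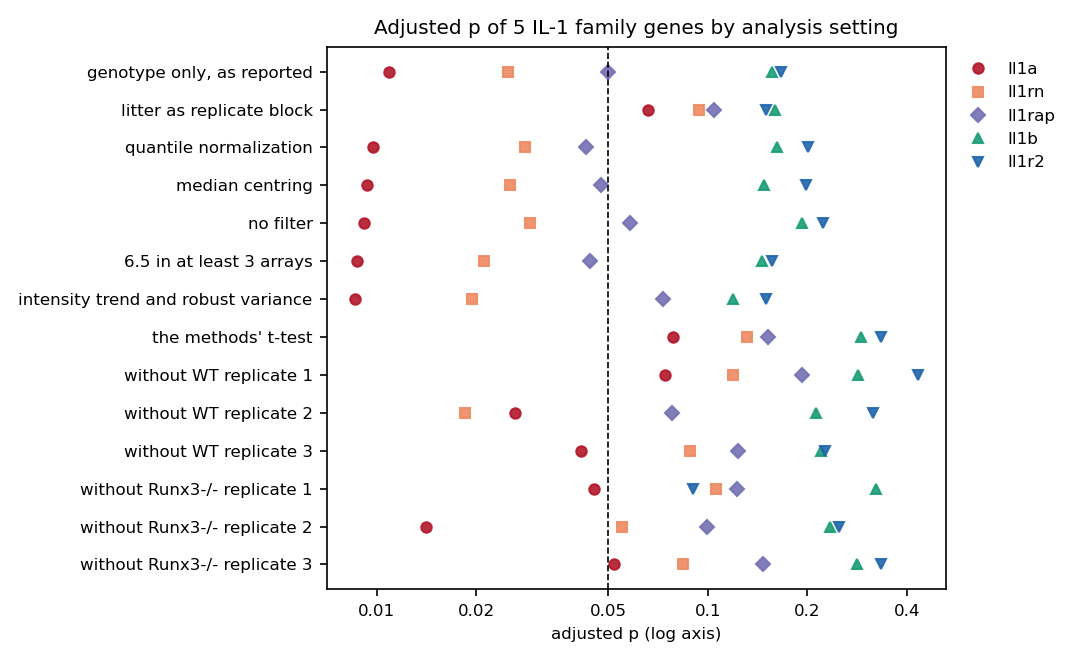
Adjusted p (horizontal log axis) of Il1a, Il1rn, Il1rap, Il1b and Il1r2 in the fit with genotype only and in 13 alternatives (rows), with the threshold of 0.05 as a dashed line. Il1a lies left of the line in 9 alternatives, Il1rn in 6 and Il1rap in 3, while Il1b and Il1r2 stay to its right in all.

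The other receptors and ligands of the family were at or near background, except Sigirr. Il1rl2 and Il18r1 lie among the receptor genes that follow Il1r2 in gene order, with Il18rap after them. Il1rl2, a receptor of IL-36, was at 4.95 to 5.12 in WT and 5.35 to 5.61 in Runx3-/- arrays, and Il18r1, the IL-18 receptor, at 5.29 to 5.40 and 5.66 to 5.96, all below background. Il18rap, the IL-18 co-receptor, reached background in Runx3-/- 1 alone (6.5), and its log2 change was 0.25 (adjusted p = 0.426). Sigirr, an inhibitory receptor, was at 7.80 to 8.06 over the 6 arrays, with a log2 change of -0.14 (95% interval -0.32 to 0.04, adjusted p = 0.414). Il1f5, Il1f6, Il1f8, Il1f9 and Il1f10, which precede Il1rn in gene order and encode the IL-36 and IL-38 cytokines and the IL-36 antagonist, lay between 4.73 and 5.32 in every array.

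Among the signalling genes downstream of the receptors, Irak3 was the one that passed the test. Irak3 encodes IRAK-M, a member of the kinase family that restrains signalling. It was at 7.57, 8.09 and 7.58 in WT 1 to 3 and at 9.02, 9.38 and 8.83 in Runx3-/- 1 to 3, so that every Runx3-/- array exceeded every WT array. The rise was 2.52-fold, a log2 change of 1.33 with an SE of 0.20 (limma, adjusted p = 0.0387). The call was lost with the litter as a replicate block (adjusted p = 0.0648), in the methods' t-test (0.159) and on leaving out any array but WT 2 (0.0672 to 0.169), while the log2 change stayed between 1.18 and 1.505 over the 13 alternatives. Of the 13 tested genes of the MyD88 and IRAK list, Irak3 alone was called, where 1.56% of all tested probe sets were. An unadjusted p of at most 0.05 was found for 3 of the 13 and for 15.9% of all tested probe sets. In the list 6 changes were positive and 7 negative, and the median was -0.01. Irak2, a positive mediator, had a log2 change of -0.32 (95% interval -0.55 to -0.08, adjusted p = 0.191), and the adaptor Myd88 of -0.01 (95% interval -0.31 to 0.30), and both were named after their values were seen.

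In the list of inflammasome and cytokine processing genes 15 of 17 were tested and 0 were called in limma or at the study's thresholds, while 6 of the 15 had an unadjusted p of at most 0.05, as 15.9% of all tested probe sets had. Naip2, a sensor of bacterial proteins, came nearest, with a log2 change of 0.35 (adjusted p = 0.0869). Casp4, the mouse caspase-11, was at 0.41 (adjusted p = 0.207), Txnip, which can bind NLRP3, at -0.34 (adjusted p = 0.164) and the sensor Nlrp1a at -0.26 (adjusted p = 0.182). Casp1, which cleaves the precursors of IL-1 beta and IL-18, and Nlrp3, the sensor upstream of it, were named after their values were seen. Their log2 changes were 0.11 (95% interval -0.11 to 0.34) and -0.22 (95% interval -0.39 to -0.04), with adjusted p of 0.612 and 0.233. The list median was -0.07.

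**Figure D4:**
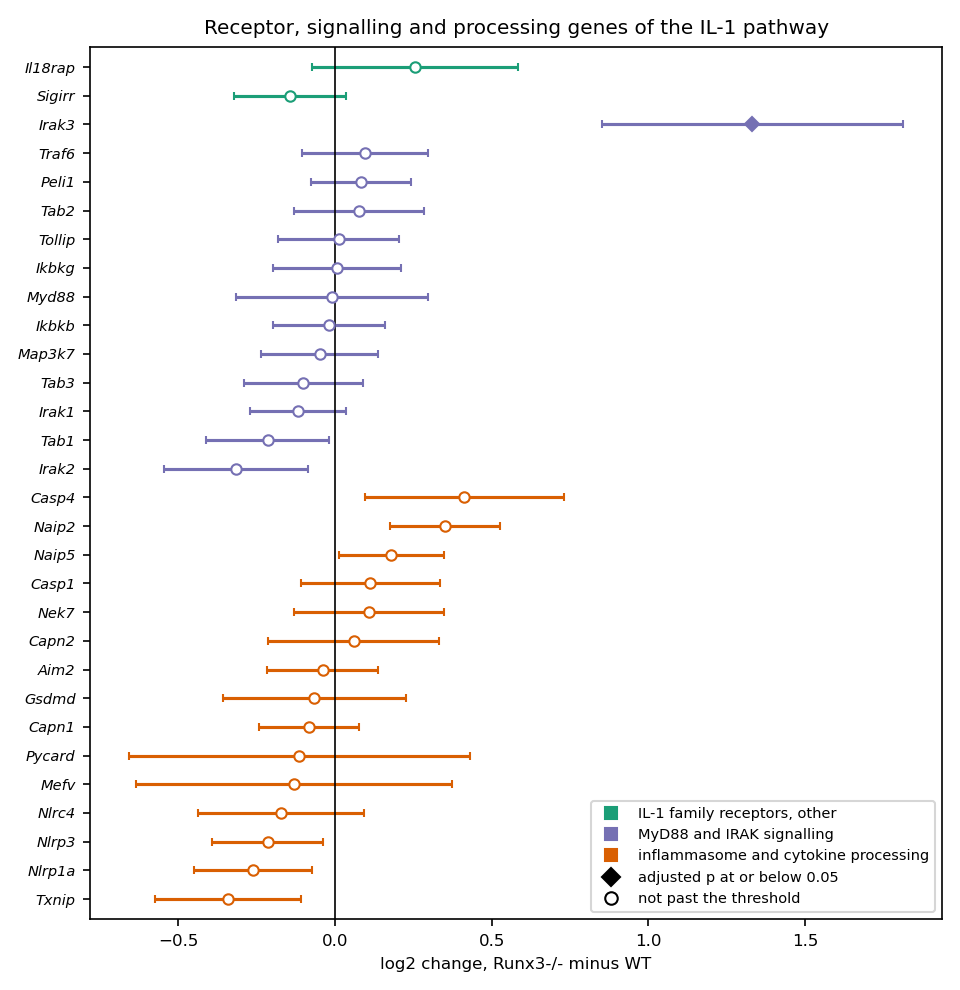
Log2 change of Runx3-/- against WT (horizontal axis) with 95% intervals for the tested genes of the lists of other family receptors (green), MyD88 and IRAK signalling (purple) and inflammasome and cytokine processing (orange). The filled diamond is Irak3 (1.33), the single gene past the adjusted threshold, and open circles are the genes that did not pass, from -0.34 for Txnip to 0.41 for Casp4.

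Markers of other cells were read beside these genes, since in bulk RNA fewer cells of a type and less RNA per cell cannot be told apart. Red pulp macrophages and monocytes also express IL-1 family genes. Of 12 red pulp macrophage markers 11 were tested, all had positive changes and 7 were called higher (Spic, C1qa, C1qb, C1qc, Cd5l, Axl and Mertk), with a median log2 change of 1.31, where 0.856% of all tested probe sets were called higher. The rise was not uniform. Among the markers not called, Vcam1 (log2 change 1.39) and Slc40a1 (1.07) were past the study's thresholds. Adgre1 (0.01) and Hmox1 (0.22) were not, and their groups overlapped. Cd5l lay below background in all WT arrays and entered the fit only through its Runx3-/- arrays. With the litter as a replicate block these calls were lost too. Their summed linear signal was 8935 to 11820 in WT and 15692 to 18598 in Runx3-/- arrays, and Cd163 alone stayed below background in all arrays. Of 7 monocyte markers with a probe set, 5 were tested, 5 had positive changes and 0 were called by limma. Of these, 3 were past the study's thresholds, all higher, and 5 had an unadjusted p of at most 0.05. Over all tested probe sets, 2.01% were higher at the study's thresholds and 15.9% had such an unadjusted p. The monocyte sum was 8910 to 10961 in WT and 13900 to 15020 in Runx3-/- arrays, with F13a1 and Vcan below background in all arrays. The part of either cell type in the rise of Il1a, Il1rn and Irak3 was not tested.

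Neutrophils carry much Il1r2, and mast cells and basophils carry Il1rl1. Of 12 neutrophil markers 10 were below background in all arrays, among them S100a8, S100a9 and Ly6g, and the list's sum was 428 to 444 in WT and 489 to 599 in Runx3-/- arrays. The remaining pair, Ngp and Mmp9, exceeded background in 1 array each, Runx3-/- 1 (7.13) and Runx3-/- 2 (7.71), and the part of neutrophils in the Il1r2 values was not tested. All 8 mast cell and basophil markers and all 6 NK cell markers were below background in every array. T cell, B cell and stromal lists had 3 of 5, 2 of 5 and 2 of 9 measured markers below background in all arrays. Their sums were 0.941, 1.40 and 1.06 times as high in Runx3-/- as in WT arrays. In the T cell and B cell lists 0 genes were called by limma (0 and 1 at an unadjusted p of at most 0.05). Of the stromal list Cdh5 was called, and 3 of the 7 tested had such an unadjusted p. Cdh5 lay below background in all WT arrays and entered the fit only through its Runx3-/- arrays. Over all tested probe sets 1.56% were called and 15.9% had such an unadjusted p.

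The genes whose levels over the 6 arrays were most like Il1a, among 9921 other tested genes, were Dse (Pearson r = 0.997, log2 change 1.00), the adaptor Dok3 (r = 0.997, 0.85) and the pseudogene Gpr137b-ps (r = 0.997, 0.36). Those most like Il1rn were the transcription factor Maf (r = 0.998, log2 change 1.46), Pla2g7, a secreted phospholipase (r = 0.998, 0.42), and the inhibitory receptor Pilra (r = 0.996, 1.34). These values describe 6 arrays in which the genotypes lie apart, so any gene that separates them with little spread scores high.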

How the data were processed

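The authors hybridised RNA of each sorted sample to an Affymetrix array and summarised probe sets in Partek Genomics Suite by RMA with GC correction. The deposited values are log2 levels, and tool versions were not given in the sources used here. The submitters' processing notes name the mm9 build. The probe set identifiers belong to a gene-level array, although an exon array is what the methods name. RMA forces arrays onto a common distribution, so a shift common to most genes cannot be seen, and folds near background are understated.

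Values were used as deposited and symbols came from GEO's platform annotation. Probe sets at 6.5 or more in at least 1 array were compared with limma 3.58.1 (R 4.3.3, lmFit and eBayes, two-sided, genotype only), with Benjamini-Hochberg adjustment over all 19149 and a threshold of 0.05. Folds are ratios of geometric means, and where a group lay below background throughout, its arrays were set at 6.5 for a lower bound. The scripts were tested on simulated data. Alternatives were the litter as a block, quantile normalization, median centring, 2 other filters, a trended and robust variance, the methods' t-test (an analysis of variance of a pair of groups) and leaving out each array. The labels pair the arrays by litter, and deviations from the genotype means correlated at 0.158, 0.102 and 0.246 between littermates. Between WT and Runx3-/- mice of different litters the correlations ran from -0.230 to 0.103. Replicates are separate mice. The number of arrays limits the precision. Sequences are RefSeq's (GRCm38.p6).

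The members and lists were chosen with earlier results of these data known. Named genes were Runx3, the members, called pathway genes or otherwise up to 4 of lowest p per pathway list, and the 3 genes most like each called member.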

Additional observations from a re-analysis of the deposited data

How the results depend on the processing

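The signs of all 7 tested IL-1 family genes and of Runx3 were kept in each of 13 alternatives. This says little, because the litter block, the filters, the variance model and the t-test leave the log2 change as it was. Leaving out 1 array cannot reverse a sign where the groups do not overlap, which held for Runx3 and every tested member but Il18. With the litter as a replicate block, 0 of 19149 probe sets and 0 IL-1 family genes passed an adjusted p of 0.05 in limma, although 3430 and 6 were at or under 0.05 without adjustment, and the log2 change of Runx3 was -1.98 (adjusted p = 0.0609). In the methods' t-test 6 probe sets and 0 IL-1 family genes passed (2816 and 5 unadjusted), against 298 and 2 with genotype only in limma. Leaving out 1 array gave 0 to 205 probe sets, 0 to 2 IL-1 family genes, 3 to 4 past the study's thresholds and a Runx3 change of -2.03 to -1.96. Without WT 1 the counts were 0 and 0 (1968 and 5 unadjusted) and Runx3 lost its call, and without Runx3-/- 3 they were 1 and 0. The other normalizations, filters and variance model gave 277 to 361 probe sets and 2 to 3 IL-1 family genes. The litter block spends residual degrees of freedom, and beyond that the cause of these losses was not tested. None of the 8 measured IL-1 family genes had a second probe set to compare. Signal limits Il1a, Il1rap and Il33, which lay below background in all WT arrays.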
